A study of Mus musculus with 3 samples.

Results

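The loci of 4 transcription factors that direct the formation of mesoderm and endoderm were examined in neural stem cells of the adult mouse brain. They are Foxa2, Gata4, Gata6 and T, the gene for Brachyury. Each was taken as a fixed window on the mouse genome build mm9, and every called region that shared at least 1 bp with the window was kept. The windows spanned 70 kb on chromosome 2 (147830000 to 147900000) for Foxa2 and 120 kb on chromosome 14 (63790000 to 63910000) for Gata4. They spanned 90 kb on chromosome 18 (11020000 to 11110000) for Gata6 and 75 kb on chromosome 17 (8595000 to 8670000) for T. They held 4 of the 21998 regions called for H3K4me3 and 73 of the 117512 regions called for H3K27me3, and no region crossed the end of a window. Chromatin immunoprecipitation with sequencing was applied to neurospheres, floating cultures of stem cells from the subventricular zone, the niche along the lateral ventricles. The cells came from wild-type male C57BL/6 mice, whose age and number the labels do not state. The H3K4me3 group and the H3K27me3 group held 1 library each, so no value has a replicate error and no difference was tested. The third sample, input DNA made without an antibody, was not analysed here.

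H3K4me3, trimethylation of lysine 4 of histone H3, marks promoters that are active or poised. H3K27me3, trimethylation of lysine 27, is laid down by Polycomb repressive complex 2, which keeps developmental regulators of other lineages silent, and a promoter with both marks is called bivalent. Foxa2 encodes a forkhead pioneer factor of the definitive endoderm, liver and lung that also acts in the floor plate and in midbrain dopaminergic neurons. Gata4 and Gata6 encode zinc-finger factors of the heart and of endodermal organs, and T encodes the T-box factor of the primitive streak and notochord. No annotation of mm9 was used, so where each gene lies in its window was not checked. Regions are therefore named by their window and not by a promoter.

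Of the 4 genes only 2, T and Foxa2, were matched to promoter sequences, and their starts are shown. The T window held an H3K4me3 region and the Foxa2 window held none, and whether this goes with the sequences was not tested. The stretches shown are the 250 bases before the annotated start. They come from RefSeq on GRCm38.p6, another build than that of the regions. Capitals mark each CpG, the dinucleotide CG. For Foxa2 the outermost of 3 annotated starts is given, at chr2:148046970-148047219 on the minus strand. For T the stretch is chr17:8434173-8434422 on the plus strand.
Foxa2: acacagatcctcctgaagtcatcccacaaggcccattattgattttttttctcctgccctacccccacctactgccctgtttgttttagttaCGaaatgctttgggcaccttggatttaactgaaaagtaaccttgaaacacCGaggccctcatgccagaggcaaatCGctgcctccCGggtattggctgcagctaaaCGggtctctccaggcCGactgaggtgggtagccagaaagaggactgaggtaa
T: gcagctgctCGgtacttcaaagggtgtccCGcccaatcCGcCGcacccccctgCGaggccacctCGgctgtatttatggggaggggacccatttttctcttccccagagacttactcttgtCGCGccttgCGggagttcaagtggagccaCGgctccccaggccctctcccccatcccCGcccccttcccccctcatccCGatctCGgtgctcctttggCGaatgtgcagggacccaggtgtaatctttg
The T stretch held 14 CpG at a GC content of 62.8%, and 29.4% of the 32851 promoter stretches of this length held at least as many. The Foxa2 stretch held 6 CpG at a GC content of 50.8%, which was the median count over all stretches. The other Foxa2 starts were richer, with 20 CpG (GC content 67.2%) and 13 CpG (54.4%) in their 250 bases. The search for CG reads the same on both strands, and 92.1% of all stretches held at least 1. Which of these starts lay under a called region was not analysed here.

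All 4 windows carried H3K27me3 well above the cover of most of the genome. Regions of this mark covered 65.4% of the Gata4 window (78.5 kb), 57.0% of the Foxa2 window (39.9 kb), 26.96% of the Gata6 window (24.3 kb) and 23.1% of the T window (17.3 kb). The windows and measures were chosen with earlier results of these data known, so the count that follows is a description only. A cover of at least 10% was met by 4 of 4 windows. Over tiles of the same width laid end to end along chromosomes 1 to 19 and X it was met by 15% (width of the Foxa2 window), 15.7% (Gata4), 15.3% (Gata6) and 15.1% (T). The median tile had a cover of 1.13% at the Foxa2 width and 1.29% at the Gata4 width.

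The 4 windows fell at different depths of that distribution. Only 0.806% of 21471 tiles had at least the cover of the Gata4 window, and 1.67% of 36812 tiles had at least that of the Foxa2 window. The shares were 6.27% of 28629 tiles for Gata6 and 7.57% of 34359 tiles for T. Set only against tiles with at least 1 H3K4me3 region, they rose to 1.26% for Gata4, 2.90% for Foxa2, 11.0% for Gata6 and 14.0% for T. The order of the 4 was the same against either set of tiles. The windows were drawn at different widths and with different amounts of flank, so their cover percentages are not strictly alike. With 10 kb taken off each side the order of cover of the first 2 turned, to 76.7% at Foxa2 and 72.9% at Gata4. The share of tiles with as much then was 0.617% for Foxa2 and 0.512% for Gata4.

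**Figure D1:**
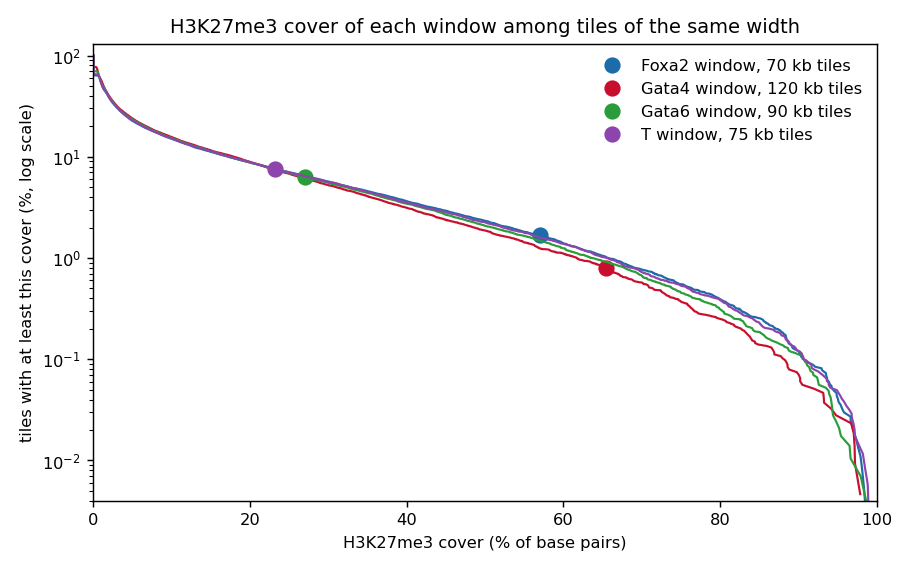
Share of genome tiles (%, log scale) with at least a given H3K27me3 cover (% of base pairs), 1 curve per window width, with the cover of each window as a point. Gata4 at 65.4% and Foxa2 at 57.0% lie in the thin upper end, where under 2% of tiles are found, and Gata6 and T lie near 6 to 8%.

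Top-scoring regions held most of the covered base pairs at 3 loci, by a small margin at Gata6, and the lesser part at T. The score that the authors deposited for each region has no stated scale and piles up at 3100, which is called the top score here. It was reached by 16 of the 73 H3K27me3 regions in the windows (21.9%), against 2.55% of the whole list. Top-scoring regions made up 79.8% of the covered base pairs at Foxa2, 57.1% at Gata4, 53.1% at Gata6 and 25.9% at T. The weakest regions were alike in all 4 windows, with lowest scores of 55.4 to 56.1 in a list that begins at 50. Cells of bulk cultures were pooled in each library, so a mark on part of the cells and a weak mark on all of them cannot be told apart.

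At Foxa2 the mark formed a compact block. The 5 top-scoring regions were 4530, 4774, 10640, 7435 and 4479 bp wide, and the last 3 were parted by gaps of only 22 and 35 bp. With the gaps up to 3 kb closed, 9 regions joined into a domain of 45.0 kb (147842645 to 147887625), 85.3% of which was covered. Only 0.963% of the 53714 domains of the genome were at least as long. The widest region, at 10640 bp, was matched in width by 0.376% of the H3K27me3 list, whose median width was 878 bp. Outside the block the Foxa2 window held 2 regions with scores of 89.9 and 87.0. The former belonged to a sparse domain of 12.1 kb, 38.4% covered, that lay mostly below the window. In RefSeq's gene order on GRCm38.p6 the neighbour of Foxa2 on the lower side is the long noncoding RNA 9030622O22Rik, and how the block falls between the genes was not analysed here.

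At Gata4 the mark was the most extended of the 4. Its 35 regions joined into a domain of 69.3 kb (63837743 to 63907011, 23 regions, 82.7% covered) and a domain of 25.5 kb (63808930 to 63834412, 11 regions, 79.8% covered), with 1 region apart. The domains were parted by 3.33 kb, just over the 3 kb used for joining. The longer was matched in length by 0.398% of all domains. Of the 8 top-scoring regions, 7 lay in the longer domain, and the widest measured 12407 bp. The eighth, 5954 bp wide, lay in the shorter domain.

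At Gata6 the widest region measured 11043 bp and was at the top score. It was wider than the widest at Foxa2 although the domain around it was shorter. The domain measured 26.1 kb (11044184 to 11070269, 9 regions, 78.0% covered), and 2.46% of all domains were at least as long. Beyond the wide region it held a second top-scoring region of 1834 bp and 7 weaker ones with scores of 88.7 to 634. The other 4 regions of the Gata6 window lay further along and had scores of 56.1 to 213.

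At T the mark was a short peak with weak shoulders. A region of 4486 bp held the only top score of the T window. Shoulders of 1830 and 1717 bp on the lower side (scores 220 and 212) and of 802 and 884 bp on the higher side (scores 129 and 104) joined it into a domain of 10.9 kb (8621041 to 8631929). It was 89.3% covered, and 7.52% of all domains were at least as long. The remaining 9 regions of the T window formed 3 small domains of 2.93 to 5.83 kb with scores of 55.4 to 198.

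**Figure D2:**
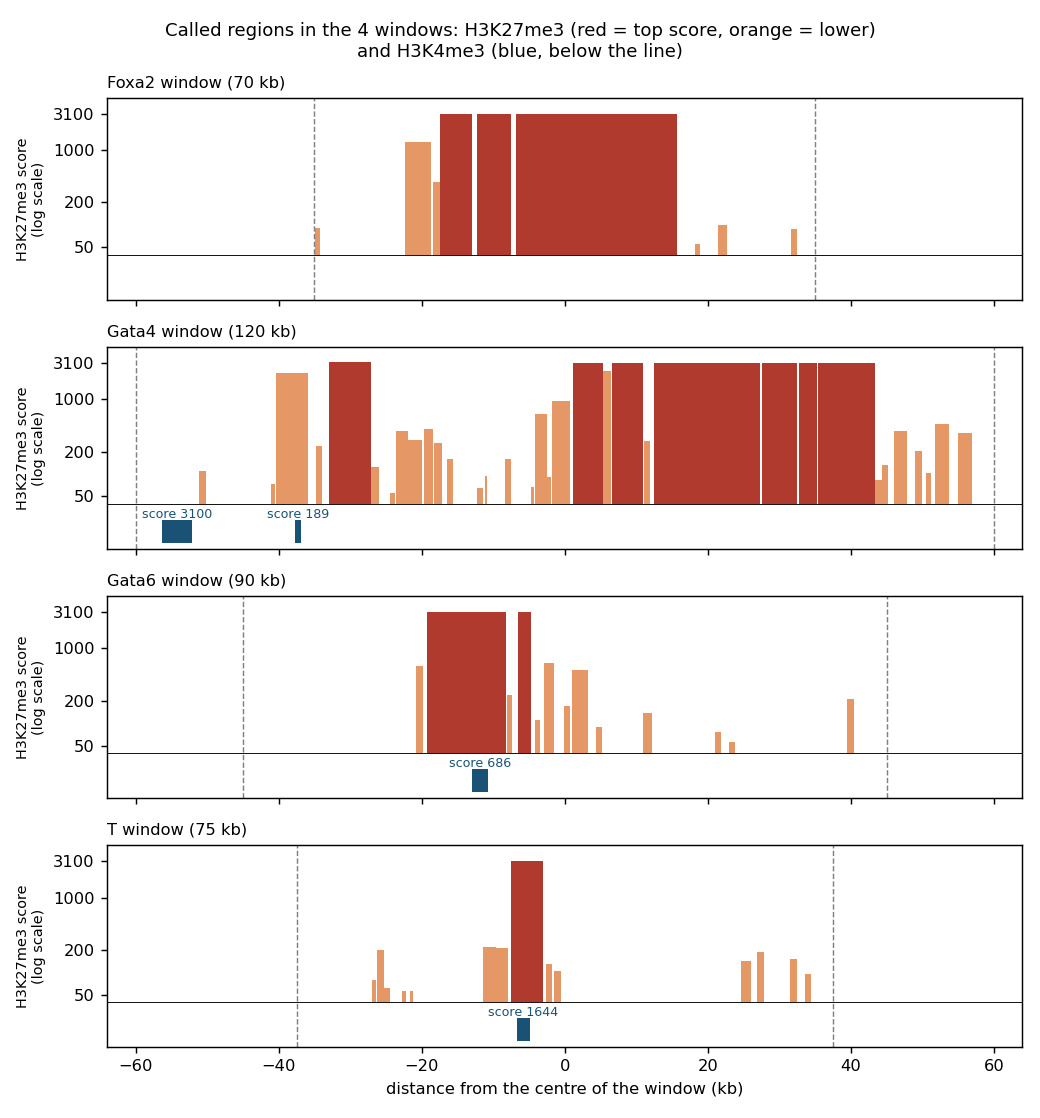
Called regions in the 4 windows, by distance from the centre of each window (kb); dashed lines are the window ends. H3K27me3 regions stand above the line at the height of their score (log scale, red at the top score of 3100 and above), and H3K4me3 regions are blue boxes below it with their scores. Foxa2 has a block without H3K4me3, and in the Gata6 and T windows the H3K4me3 region lies under a top-scoring H3K27me3 region.

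Each window had a domain of at least 10 kb, a length reached by 8.32% of all domains. That share is of single domains, whereas each window was represented by the longest of several, so they are not strictly alike. The same holds for the shares of all domains given above for each locus. How many tiles touch a domain of that length was not computed. Among the domains of that length, 11.6% were at least as long as that of Foxa2, 4.79% as that of Gata4, 29.6% as that of Gata6 and 90.5% as that of T. The T domain was therefore near the shortest of this class, whose median was 18.0 kb. Among domains of a similar length, given below as a range in kb, 13.1% were at least as fully covered as the Foxa2 domain, 20.9% as the Gata4 domain, 25% as the Gata6 domain and 3.81% as the T domain. This range of lengths was chosen after the values had been seen.

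**Figure D3:**
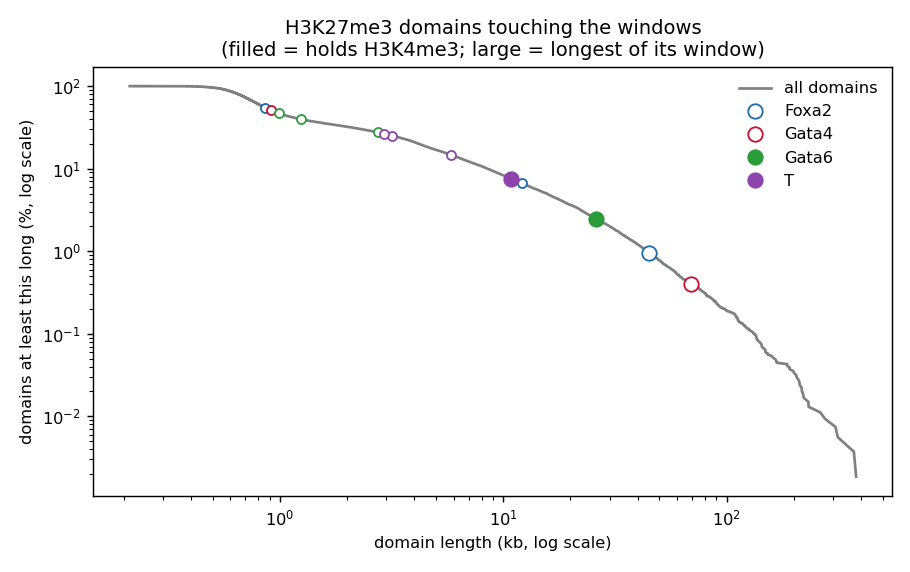
Share of all H3K27me3 domains (%, log scale) that are at least as long as a given length (kb, log scale). Large points are the longest domain of each window, small points the other domains that touch it, and filled points hold an H3K4me3 region. The longest domains run from 10.9 kb at T to 69.3 kb at Gata4, and the 2 longer ones are open.

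The loci also differed in what lay around them. The 100 kb beyond the Gata6 window were covered to 4.29% on the lower side and 0% on the higher side, and those beyond the T window to 3.73% and 3.94%. Around Foxa2 they were covered to 9.72% and 3.65%. Beyond the Gata4 window the cover was 23.4% on the lower side and 60.7% on the higher side. The highest flank cover of the 4 windows was thus that on the higher side of Gata4. On the lower side the next domain of at least 10 kb was 3.33 kb from that of Gata4, 11.9 kb from that of Foxa2 and 323.9 kb from that of T, and for Gata6 none was called between its domain and the start of the chromosome. The next domain of at least 10 kb on the higher side was 22.9 kb from that of Gata4, 1565 kb from that of Gata6, 1663 kb from that of T and 1951 kb from that of Foxa2. When gaps up to 10 kb were closed, the Gata4 window became part of a domain of 335.6 kb (63798883 to 64134435) with 98 regions, the 41st longest of 32325. On that setting the Foxa2 domain measured 63.8 kb, the Gata6 domain 44.6 kb and the T domain 26.4 kb.

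The windows held few H3K4me3 regions, and their counts were not the same. The T and Gata6 windows held 1 region each, the Gata4 window held 2 and the Foxa2 window held none. Among tiles of the same width, at least 1 H3K4me3 region was found in 37.7% for T, 41.7% for Gata6, 48.3% for Gata4 and 36.2% for Foxa2. With 4 windows, a region in 3 of them is too small a count to set apart from these shares, and most tiles of the Foxa2 width held none. The sequencing depth is not known, so a window without a called region may still carry a weak mark.

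At T the H3K4me3 region was 1841 bp wide (8625785 to 8627625) with a score of 1644. Its width was close to the middle of the whole list, of which 54.2% was at least as wide. At Gata6 the region was 2171 bp wide (11052077 to 11054247) with a score of 686, and 44.8% of the list was at least as wide. Neither reached the top score, which 52.6% of all H3K4me3 regions did. These were regions of middling width for the list, with scores below its median of 3100.

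The Gata4 window held regions of 2 kinds. The first was 4146 bp wide (63793730 to 63797875) at the top score, and only 6.39% of the list was at least as wide. It carried no H3K27me3 and lay 1007 bp from the nearest region of that mark, near the lower end of the window. The second was 771 bp wide (63812287 to 63813057) with a score of 189, and 92.9% of the list was at least as wide. It lay inside the shorter Gata4 domain, and the domain of 69.3 kb had no H3K4me3 region at all. In RefSeq's gene order on GRCm38.p6 the neighbour of Gata4 on the lower side is Neil2, which encodes a DNA glycosylase of base excision repair. Which gene each of these H3K4me3 regions belongs to, be it Gata4, Neil2 or another, was not analysed here. Neither can be taken as a Gata4 promoter from these data.

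**Figure D4:**
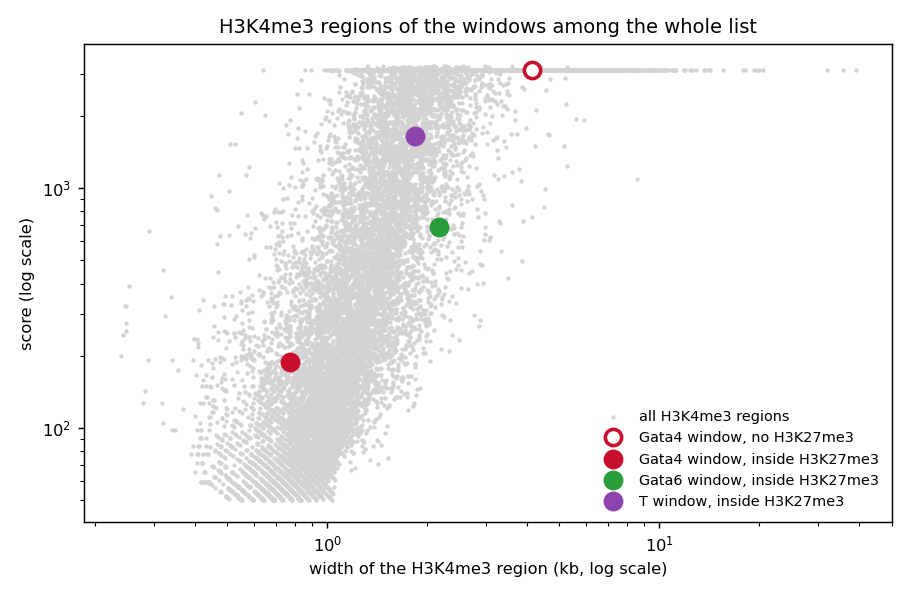
Width (kb, log scale) and score (log scale) of all 21998 H3K4me3 regions in grey and of the 4 regions in the windows in colour. The T and Gata6 regions lie amid the list at 1841 and 2171 bp, the Gata4 region inside H3K27me3 is narrow and weak at 771 bp, and the Gata4 region without H3K27me3 (open) is wide at the top score.

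H3K27me3 lay on 3 of the 4 H3K4me3 regions, against 33.5% of the whole list, and covered those 3 over 100% of their length. Whole cover was found for 9.55% of the list, or 2101 regions. None of the 3 was at the top score, and with only regions at or above the median score of their list the count with both marks was 0 in all 4 windows. In each of the 3 cases a lone H3K27me3 region spanned the H3K4me3 region from end to end, as in all 2101 wholly covered regions. At Gata6 this was the 11043 bp region, which reached 6290 bp beyond the H3K4me3 region on the lower side and 2582 bp on the higher side. At T it was the 4486 bp region, which reached 840 bp and 1805 bp beyond. In the Gata4 window it was a region of 4509 bp with a score of 2260, which reached 2659 bp and 1079 bp beyond.

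Among the 2101 wholly covered H3K4me3 regions, those of Gata6 and T were on the wide side and that of Gata4 was on the narrow side. The class had a median width of 1393 bp and a median score of 483. At least as wide as the Gata6 region were 14.7% of the class, as the T region 25.7% and as the Gata4 region 92.2%. At least as high in score were 43.2%, 26.3% and 70.1%. The H3K27me3 region over such a region had a median width of 4138 bp, close to those in the T and Gata4 windows, and 11.99% were at least as wide as that at Gata6. The libraries came from bulk cultures, so both marks at a place may sit on different alleles or in different cells.

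The reach of H3K27me3 from these H3K4me3 regions differed among the loci. Within 1 kb of the ends the mark covered 100% at Gata6 and Gata4 and 92.0% at T. The mean was 76.1% for wholly covered regions and 44.7% for all regions with both marks. For wholly covered regions the median was higher, at 88.65%, so the value of T was close to it. From 2 to 5 kb it covered 83.3% at Gata6, 73.5% at T and 51.7% in the Gata4 window, beside 46.6% for wholly covered regions. From 5 to 10 kb the T locus was at 0%, while Gata6 was at 52.6%, Gata4 at 49.8% and the class mean at 37.6%. From 20 to 50 kb Gata6 (6.24%) and T (10.9%) were below the class mean of 22.8%. The Gata4 values are means of unlike sides. On the lower side of that region the mark covered 0% from 5 to 10 kb, 9.11% from 10 to 20 kb and 0% from 20 to 50 kb. On the higher side it covered 99.6%, 75.1% and 64.2%. The mark was thus dense and narrow around T, dense and somewhat wider around Gata6, and far-reaching on the higher side alone in the Gata4 window.

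**Figure D5:**
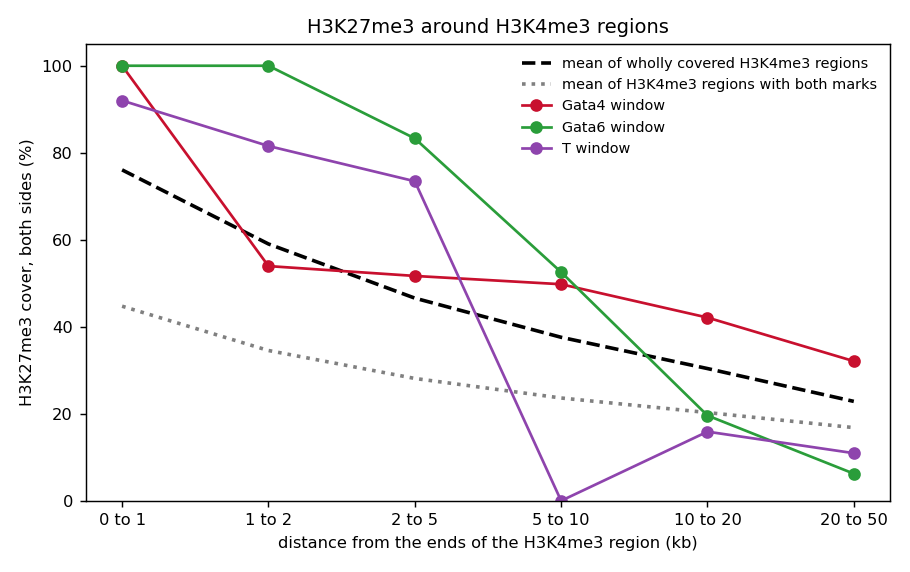
H3K27me3 cover of both flanks (%) by distance from the ends of the H3K4me3 region (kb), for the 3 regions inside H3K27me3 and for the means of 2 classes of the whole list. Gata6 and T start at 100% and 92.0%, T drops to 0% at 5 to 10 kb, and the 32.1% of Gata4 at 20 to 50 kb is the mean of 0% on the lower side and 64.2% on the higher side.

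Position within the domain also varied, and the H3K4me3 region did not sit at the same place in each domain. At T it was nearly central, with 4.74 kb of domain on the lower side and 4.30 kb on the higher side. At Gata6 it lay towards the lower side, with 7.89 kb below and 16.0 kb above. In the shorter domain of the Gata4 window it lay close to the lower end, with 3.36 kb below and 21.4 kb above. In RefSeq's gene order a long noncoding RNA, Gata6os, overlaps the lower end of the Gata6 gene model, and a predicted coding gene, LOC115486424, overlaps that of T. A region over such an overlap cannot be given to either gene from these data.

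With gaps up to 3 kb closed, the Foxa2 domain and the longer Gata4 domain had no H3K4me3 region, a state found in 57.5% of domains of at least 10 kb. For Gata4 this depended on the gap. With gaps up to 10 kb closed, the Gata4 domain held 3 H3K4me3 regions and the Foxa2 domain still held 0. The values that follow are for the 3 kb setting. Among domains of a length like that of Foxa2 (36.0 to 56.2 kb), 193 of 452 had none (42.7%), and among those like that of Gata4 (55.4 to 86.6 kb) 65 of 201 had none (32.3%). Among those like that of Gata6 (20.9 to 32.6 kb) 480 of 920 had none (52.2%), and among those like that of T (8.71 to 13.6 kb) 1479 of 2101 (70.4%). The Gata6 and T domains each held 1 H3K4me3 region, so for them these shares are of the opposite state. Most domains of the Foxa2 and Gata4 lengths held H3K4me3, and most of the Gata6 and T lengths did not. At the Gata6 length the split was near even. The ranges of length were chosen after the values had been seen, so these shares are a description only. From the Foxa2 domain the nearest H3K4me3 region was 139.0 kb away on the lower side and 333.1 kb away on the higher side. From the Gata4 domain these distances were 24.7 and 147.5 kb.

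Beside the classes of domains in the whole list, Foxa2 was long and full for a domain of 10 to 50 kb without H3K4me3. The 2447 domains of 10 to 50 kb without H3K4me3 had a median length of 15.7 kb and a median cover of 62.1%, against 45.0 kb and 85.3% at Foxa2. Domains of a length like that of Foxa2, with or without H3K4me3, had a higher median cover of 73.1%. The 1603 domains of 10 to 50 kb with H3K4me3 had a median length of 19.0 kb and a median cover of 69.8%, with Gata6 above both values (26.1 kb, 78.0%). T was shorter than that median and more fully covered (10.9 kb, 89.3%). Gata4, at 69.3 kb and 82.7%, was near the medians of the 417 domains of 50 kb or more, which were 70.9 kb and 78.0%. With 1 library per mark these differences were not tested.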

How the data were processed

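The deposited region lists of 1 H3K4me3 and 1 H3K27me3 library were used, with groups taken from the antibody in the labels. The submitters' processing notes list Bowtie 1.1.2 and the build mm9, and each region has a MACS name in the deposited lists. How MACS was run (version, threshold, control) and how deep the libraries were is not given in the sources used here. Each region keeps the score the authors deposited, from 50.01 for H3K4me3 and 50 for H3K27me3, and was compared only within a list. A deeper library yields more and wider weak regions, so the number of regions also depends on depth. Positions are counted from 1.

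Cover is the share of base pairs in called regions. Domains are H3K27me3 regions merged over gaps of up to 3 kb. Tiles run end to end from the first to the last region of each of chromosomes 1 to 19 and X. Marks overlap when they share at least 1 bp. The named genes are the 4 members. They, the windows and the measures were chosen with earlier results of these data known. The fixed lists of other germ-layer and neural genes were not used, since no gene positions on mm9 were used. Alternatives were score, window, gap, overlap and tile choice. Python 3.11.15, NumPy 2.4.6, pandas 2.3.3, matplotlib 3.10.9 and bedtools 2.31.1 were used. Interval counts were tested on simulated data, and cover differed from bedtools by 0 bp.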

Additional observations from a re-analysis of the deposited data

How the results depend on the processing

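With regions at or above the median score of their list, cover was 52.1% (Foxa2), 60.6% (Gata4), 23.3% (Gata6) and 17.5% (T), and 5.61% of tiles reached that of Gata6. Domains then measured 38.1, 61.2, 24.0 and 9.67 kb. H3K4me3 regions fell to 1 at Gata4 and 0 at Gata6 and T, and those with both marks to 0 at all 3, since only top-scoring H3K4me3 regions pass this limit. With windows trimmed by 10 kb at each side, cover was 76.7%, 72.9%, 33.2% and 27.7% in the same order of loci, so Foxa2 passed Gata4. The shares of tiles with as much were 0.617%, 0.512%, 4.90% and 6.42%, and 1 H3K4me3 region was left at Gata4. Against tiles with H3K4me3 the shares were 2.90%, 1.26%, 11.0% and 14.0%. A merging gap of 1 kb gave 38.1 kb (Foxa2), 52.5 kb (Gata4) and 19.3 kb (Gata6), and left T at 10.9 kb. A gap of 10 kb gave 63.8, 335.6, 44.6 and 26.4 kb. The order of domain lengths was the same under each of these settings. Counts of H3K4me3 regions with both marks were equal when 200 bp, or 50% of the region, had to be shared. No paired analysis was possible because no group has a replicate. Depth is not known, so no absence can be set against a detection limit.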
